A study of Mus musculus with 5 samples.

Results

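The 10 genes described here let cells sense or carry adenosine and inosine, and were followed across the cell types of the kidney. They are the adenosine receptor genes Adora1, Adora2a, Adora2b and Adora3, the equilibrative nucleoside transporter genes Slc29a1, Slc29a2 and Slc29a3, and the concentrative nucleoside transporter genes Slc28a1, Slc28a2 and Slc28a3. They were taken by gene symbol from the list of 27998 genes, in which each of the 10 has 1 row. The data are droplet single-cell RNA libraries of the kidneys of 5 C57BL/6j mice. All 5 had received pristane, a hydrocarbon oil that brings on a disease resembling lupus. In 3 mice the treatment was a fecal microbiota transplant (FMT) from MRL/MpJ mice, and in 2 mice it was saline. The labels describe the cells as tubular epithelial, and their extraction text adds B cells, while the libraries also hold T cells and myeloid cells. The series title names inosine derived from the microbiota and its restriction of B cell differentiation and migration, so these genes cover receptors and carriers through which such a nucleoside could be seen or taken up.

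Adenosine receptors are G protein-coupled receptors. The products of Adora1 and Adora3 couple to inhibitory G proteins and lower cyclic AMP, and those of Adora2a and Adora2b couple to stimulatory G proteins and raise it. Equilibrative transporters let nucleosides pass a membrane in either direction, while concentrative transporters use the sodium gradient to draw them in, and in the kidney these systems are known for salvaging filtered nucleosides.

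The libraries held 15333445 to 45309178 UMIs (unique molecular identifiers, each standing for 1 captured RNA molecule), and 22591 of 26237 barcodes had at least 200 genes and under 50% mitochondrial UMIs. Median depth per mouse was 3329.5 to 5093 UMIs per cell, and any 2 libraries shared 3 to 12 cell barcodes. Cells were gated on marker UMIs that include none of the 10 genes. This gave 2338 B cells (Cd79a or Ms4a1), 1854 T cells (Cd3e), 1120 myeloid cells (Lyz2), 10855 proximal tubule cells (Lrp2 or Slc34a1), 805 distal convoluted tubule cells (Slc12a3) and 770 intercalated cells (Atp6v1g3). A further 1509 cells passed more than 1 gate and 3340 passed none. Markers that the gates do not use were highest in their own lineage in all 6. The intercalated gate was the least clean and the shallowest, with proximal, myeloid and B cell markers at 709, 646 and 610 CPM beside its own at 1963 CPM. The B cell markers there ranged from 8.67 CPM in FMT mouse 2 to 1243 CPM in saline mouse 1. Median depths in this gate were 1179 to 2079 UMIs. CPM here are the UMIs of a gene per 1000000 UMIs of the summed cells. Myeloid cells were 2.19% to 4.09% of kept cells in the FMT mice, against 11.8% in saline mouse 1 and 3.67% in saline mouse 2.

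The receptors and carriers differed between the lineages. B and T cells both held Slc28a2, and T cells also held Adora2a and Slc29a1. Distal tubule cells held Adora2b, Slc29a1 and Slc29a2. Proximal tubule cells held Slc29a3 and Slc28a1, with a little Slc29a2. Myeloid cells held a mixture that differed among their subtypes, and intercalated cells held Slc29a1. Adora1, Adora3 and Slc28a3 gave 34, 10 and 3 UMIs in all gated cells together. Against the mean of the other 5 lineages, folds were read for Adora2a, Slc29a1, Slc29a2, Slc29a3 and Slc28a2. Of these 5 genes, 2 were called higher in B cells, 3 in T cells and 4 in myeloid cells. In proximal cells 1 was called higher, in distal cells 2 and in intercalated cells 0 (edgeR quasi-likelihood test, Benjamini-Hochberg adjusted p under 0.05 over 11019 genes). Of all genes tested, 33.8%, 34.2%, 31.6%, 39.1%, 32.3% and 25.6% were called higher in these contrasts, so a call by itself sets no gene apart. Such a fold was read only for members with UMIs in every lineage, which leaves out Adora2b. Adora1, Adora3, Slc28a1 and Slc28a3 did not pass the filter on low counts in that fit. The shares of all genes were not limited to genes with UMIs in every lineage.

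**Figure D1:**
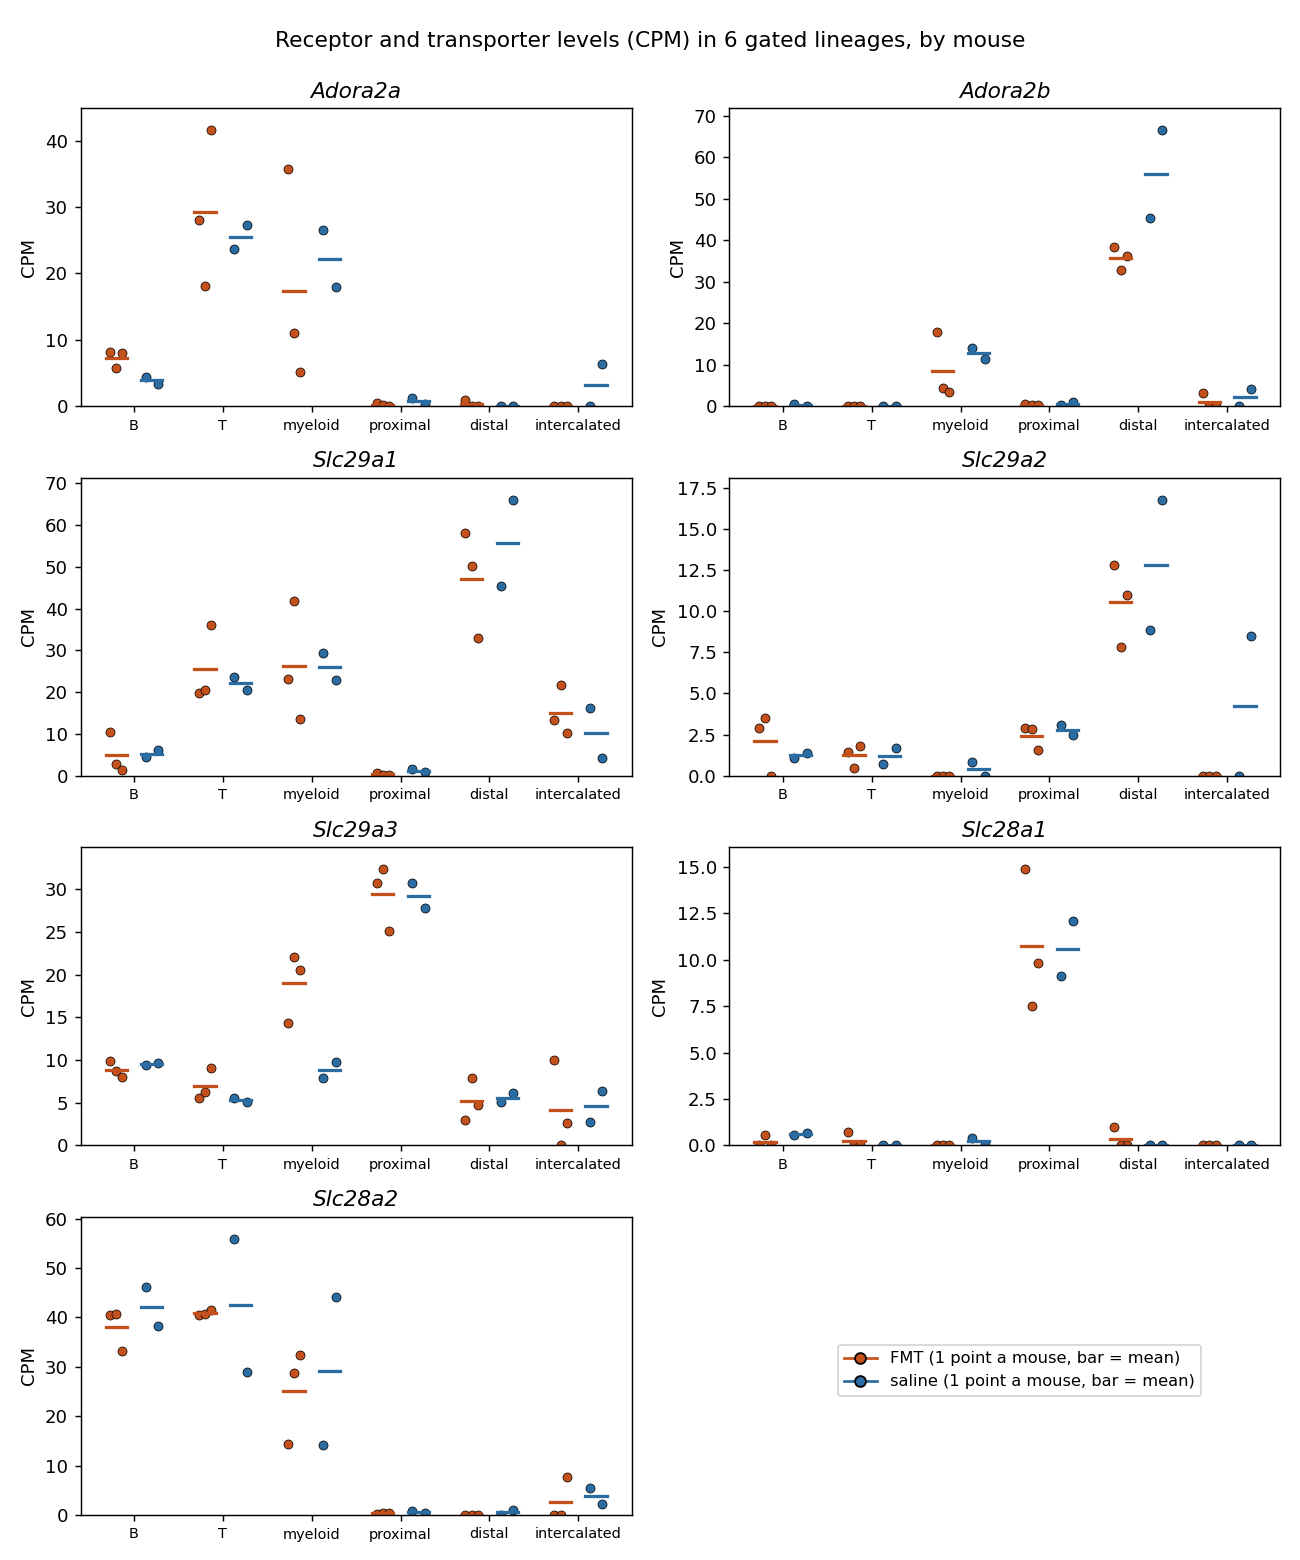
Level (CPM, linear axis) of 7 genes in the summed cells of 6 gated lineages; each point is 1 mouse, FMT left of saline, and bars are group means. Adora2b stands at 32.9 to 66.5 CPM in distal cells and Slc28a1 at 7.52 to 14.9 CPM in proximal cells, while Adora2a and Slc28a2 lie in the immune lineages.

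Adora2a, the receptor gene best known for dampening immune cells through cyclic AMP, was expressed by T cells and by part of the myeloid cells. In T cells it stood at 28.0, 18.2 and 41.5 CPM in FMT mice 1 to 3, against 23.8 and 27.3 CPM in saline mice 1 and 2. In myeloid cells the values were 35.8, 11.04 and 5.13 CPM in FMT mice, against 26.5 and 17.9 CPM in saline mice. The groups overlapped in both lineages. Pairs of lineages were compared in the same fit, and most pairs differed in many genes. Of all genes tested, 35.5% were called in either direction for T over B cells, 49.6% for T over myeloid cells, 49.2% for myeloid over B cells, 70.6% for distal over T cells, 69.7% for distal over myeloid cells, 56.8% for distal over proximal cells, 76.5% for proximal over B cells and 73.9% for proximal over myeloid cells. B cells were lower, with 5.95 ± 2.09 CPM (SD, n = 5 mice), and proximal cells had 0.428 ± 0.458 CPM. Intercalated and distal cells held 3 UMIs and 1 UMI. T cells exceeded B cells by 2.18 ± 0.36 on the log2 scale (SE, edgeR adjusted p = 1.02e-05), and myeloid cells exceeded B cells by 1.87 ± 0.41 (edgeR adjusted p = 0.000313). T and myeloid cells were not told apart (log2 difference 0.31 ± 0.33, edgeR adjusted p = 0.468). A UMI was seen in 11.1% of T cells on average, against 0.234% of proximal cells, which were deeper (median 3576 to 4745 UMIs per T cell and 4567 to 6632 per proximal cell).

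Finer groups of cells, set by further markers with the values already known, divided the Adora2a signal sharply within the myeloid lineage. Myeloid groups needed 1 UMI of Treml4, Ace or Cd300e, 2 of Ly6c2 or Ccr2, 3 of C1q genes or 10 of neutrophil genes. Cells that met more than 1 of these rules were left out of all the groups, so these hold only part of the gate. Groups among cells past no gate likewise left out cells with more than 1 set of markers. Myeloid cells with Treml4, Ace or Cd300e, genes of patrolling monocytes, had 85 UMIs in 617 cells, or 38.9 CPM (exact Poisson 95% interval 31.1 to 48.1, counting error only). Myeloid cells with Ly6c2 or Ccr2, genes of classical monocytes, had 1 UMI in 74 cells, or 2.08 CPM (0.0526 to 11.6). Those with neutrophil genes had 0 UMIs in 152 cells, which allows up to 7.21 CPM. Cells past no gate with the natural killer genes Ncr1, Klra8 or Klre1 had 35 UMIs in 159 cells, or 50.4 CPM (35.1 to 70.1). The 46 cells past no gate with endothelial genes (Emcn, Kdr, Plvap, Cdh5) had 6 UMIs, or 40.8 CPM (14.99 to 88.9), all of them from saline mouse 2. CD8 T cells, CD4 T cells without Foxp3 and Foxp3 T cells had 24.8, 30.2 and 37.7 CPM, with intervals that overlap. Within the B gate, cells with plasma cell genes (Jchain, Mzb1, Xbp1) had 12.1 CPM (6.78 to 19.97), against 4.50 CPM (2.99 to 6.50) in the other B cells.

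**Figure D2:**
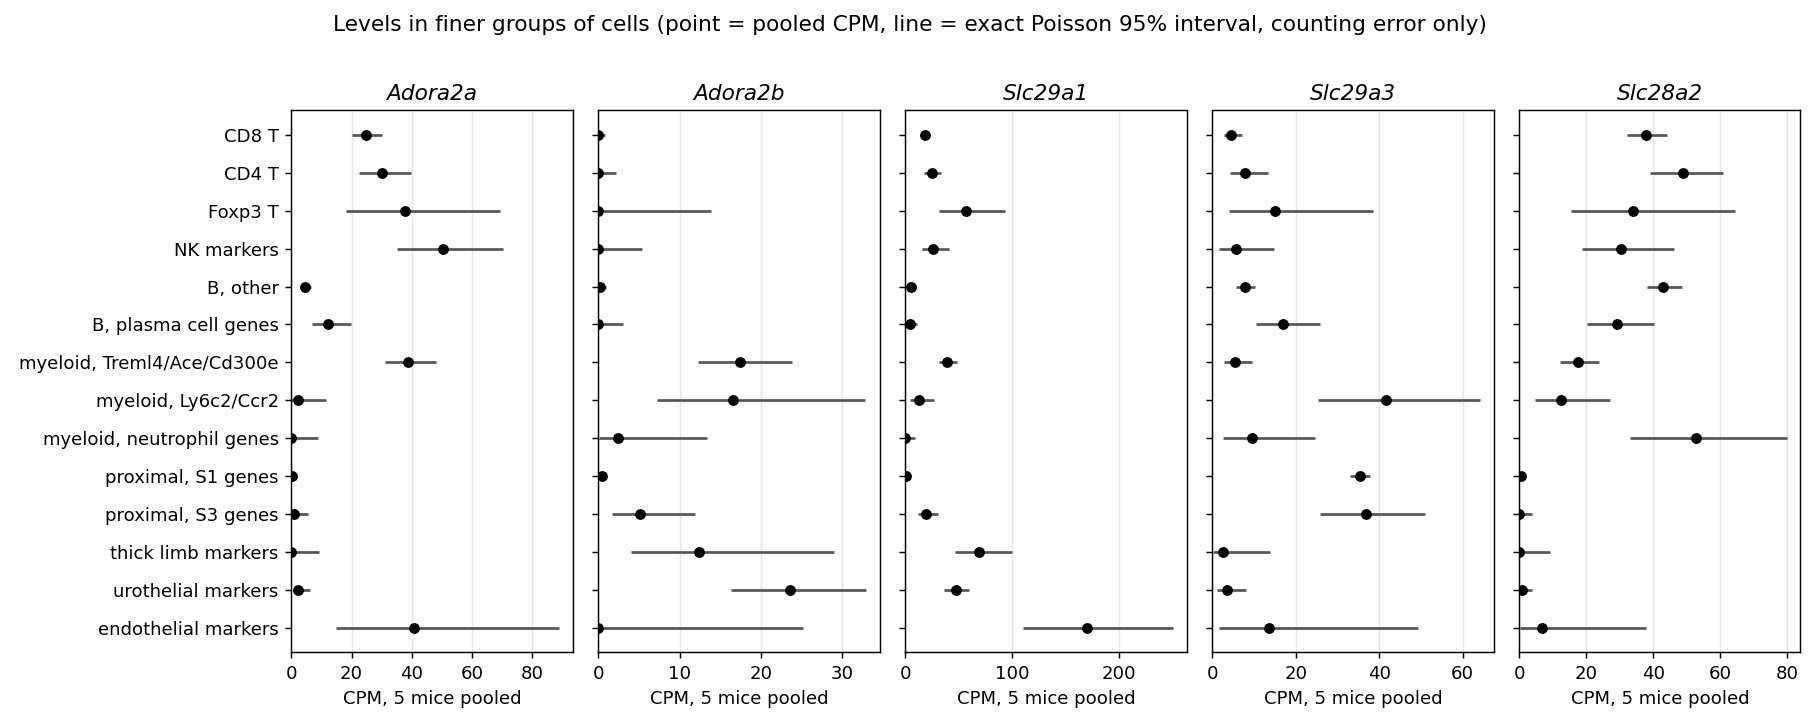
Pooled level (CPM, linear axis, 5 mice together) of 5 genes in 14 finer groups of cells; points are pooled CPM and lines are exact Poisson 95% intervals, which cover counting error and not the spread between mice. Adora2a reaches 38.9 CPM in myeloid cells with Treml4, Ace or Cd300e and lies at 0 in those with neutrophil genes, while Slc28a2 lies at 52.9 CPM in the neutrophil-gene cells.

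Adora2b, the lower-affinity receptor gene that couples to the same stimulatory pathway, was a gene of the distal convoluted tubule in these cells. It is on chromosome 11 (62248984 to 62266453, plus strand, GRCm38). The 250 bases before its start in RefSeq's GRCm38.p6 table, at chr11:62248734-62248983 on the plus strand, are shown because this gene marks the tubule cells most clearly among the 4 receptors. Capitals mark CG pairs, of which there are 22. At least 22 are held by 14.8% of the 32851 such windows in that table, and the median window holds 6.
Adora2b: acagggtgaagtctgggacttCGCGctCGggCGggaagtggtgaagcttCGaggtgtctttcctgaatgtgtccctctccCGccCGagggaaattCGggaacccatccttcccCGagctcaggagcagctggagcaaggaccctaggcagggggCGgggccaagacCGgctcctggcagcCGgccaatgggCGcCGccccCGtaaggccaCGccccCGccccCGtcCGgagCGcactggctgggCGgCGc

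Distal cells had 39, 21 and 23 Adora2b UMIs in FMT mice 1 to 3, against 36 and 131 in saline mice 1 and 2, which is 38.5, 32.9 and 36.1 CPM, against 45.4 and 66.5 CPM. Of the 461 Adora2b UMIs in all kept cells, 250 came from the 805 distal cells. The 1854 T cells held 0, which allows up to 0.351 CPM, and the 2338 B cells held 1. Distal cells exceeded myeloid cells, the next in order, by 1.40 ± 0.28 on the log2 scale (edgeR adjusted p = 7.36e-05), and exceeded proximal cells by 5.93 ± 0.28 (edgeR adjusted p = 3.29e-17). A UMI was found in 19.3% of distal cells on average, against 0.282% of proximal cells at a like depth (median 4276.5 to 6321 UMIs per distal cell). Among cells past no gate, those with the urothelial genes Upk1b, Upk3a or Krt5 had 34 UMIs in 116 cells, or 23.6 CPM (16.3 to 32.9). In myeloid cells the gene was found in those with Treml4, Ace or Cd300e, at 17.4 CPM (12.3 to 23.9), and in those with Ly6c2 or Ccr2, at 16.6 CPM (7.17 to 32.7). Saline mouse 1 gave 32 of the 38 UMIs in the Treml4, Ace or Cd300e cells, and without it their level was 10.5 CPM (3.85 to 22.9). These intervals overlap. Myeloid cells as a whole averaged 10.2 ± 6.23 CPM (SD, n = 5 mice), and intercalated cells held 3 UMIs.

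Adora1 and Adora3, both coupled to inhibitory G proteins, were near the limit of detection in the gated lineages. Adora1 gave 12 UMIs in intercalated cells (6.82 CPM, exact Poisson 95% interval 3.53 to 11.9) and 22 in the far more numerous proximal cells (0.283 CPM, 0.177 to 0.428). It gave 0 in B, T, myeloid and distal cells, which allows up to 0.402, 0.351, 0.648 and 0.594 CPM. Of the 80 Adora1 UMIs in kept cells, 42 came from cells past no gate. Of these, 21 were in the 116 cells with urothelial genes and 8 in the 10 cells with the principal cell genes Aqp2 or Fxyd4. FMT mice 1 and 2 had 0 of these 8 UMIs in 1 and 3 such cells, and saline mice 1 and 2 had 4 each in 5 and 1 such cells. Those cells of saline mice 1 and 2 held 57460 and 9048 total UMIs. Their Adora1 level was thus above that of any gated lineage, though it rests on few cells. Mybph overlaps Adora1 on the opposite strand. Adora3 gave 7 UMIs in myeloid cells and 3 in T cells. It overlaps Tmigd3 on the same strand, so its few UMIs cannot be given to it with certainty.

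Slc29a1, the gene of the main equilibrative transporter of the cell surface, was found in all 6 lineages. Distal cells had 58.2, 50.1 and 33.0 CPM in FMT mice, against 45.4 and 66.0 CPM in saline mice. Myeloid cells had 26.2 ± 10.4 CPM and T cells 24.2 ± 6.85 CPM (SD, n = 5 mice), followed by intercalated cells with 13.2 ± 6.51, B cells with 5.05 ± 3.50 and proximal cells with 0.721 ± 0.546. Distal and myeloid cells did not differ beyond their spread (log2 difference 0.42 ± 0.28, edgeR adjusted p = 0.184), but with library size as the only scaling this difference was 1.01 with an adjusted p of 0.00243. That scaling moved the median of all genes in the distal over myeloid contrast to 0.52, against −0.08 with TMM. Myeloid and T cells did not differ beyond it either (0.32 ± 0.29, edgeR adjusted p = 0.373). Distal cells exceeded T cells by 0.74 ± 0.25 (edgeR adjusted p = 0.0095), a call that ended without saline mouse 2 (0.67, adjusted p = 0.0576). T cells exceeded B cells by 2.04 ± 0.34 (edgeR adjusted p = 8.91e-06), and proximal cells lay below B cells, at −2.88 ± 0.44 (edgeR adjusted p = 6.27e-07). An antisense gene, Gm17080, overlaps Slc29a1 on the opposite strand, and no header or label says whether strand was used in counting.

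The Slc29a1 signal was uneven inside the lineages as well. The 46 cells with endothelial genes had 25 UMIs, or 170 CPM (110 to 251), of which saline mouse 2 gave 18, and without that mouse the level was 102 CPM (41.1 to 211). Cells with the thick ascending limb genes Slc12a1 or Umod had 69.6 CPM (46.2 to 101), and those with urothelial genes 47.1 CPM (36.6 to 59.8), or 30.1 CPM without FMT mouse 1. Among myeloid cells, those with Treml4, Ace or Cd300e had 39.4 CPM (31.5 to 48.6), while the 152 with neutrophil genes had 0 UMIs. Proximal cells with the late-segment genes Slc7a13 or Atp11a had 19 UMIs in 83 cells, or 19.4 CPM (11.7 to 30.3), against 0.520 CPM (0.277 to 0.888) in the 3984 with the early-segment genes Slc5a2 or Slc5a12. Of these 19 UMIs, 11 came from 1 cell, and without FMT mouse 1 the late-segment level was 9.63 CPM (3.53 to 21.0).

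Slc29a2, the gene of another equilibrative transporter, which also carries nucleobases, was a low gene with its highest level in distal cells. It stood at 12.8, 7.83 and 11.0 CPM in distal cells of FMT mice, against 8.83 and 16.8 CPM in those of saline mice. Proximal cells had 2.57 ± 0.601 CPM (SD, n = 5 mice). Distal cells exceeded proximal cells by 1.67 ± 0.34 on the log2 scale (edgeR adjusted p = 7.38e-05). Proximal and B cells were not told apart (0.41 ± 0.45, edgeR adjusted p = 0.412). B cells averaged 1.77 ± 1.41 CPM and T cells 1.23 ± 0.606 CPM (SD, n = 5 mice), while myeloid and intercalated cells held 2 and 4 UMIs.

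Slc29a3 encodes an equilibrative transporter that sits mainly in lysosomal and other inner membranes. It was the most counted of the 10 genes, with 2339 of its 2961 UMIs in proximal cells. There it stood at 30.7, 32.3 and 25.2 CPM in FMT mice, against 30.7 and 27.8 CPM in saline mice. Myeloid cells had 14.9 ± 6.31 CPM and B cells 9.11 ± 0.770 CPM (SD, n = 5 mice). T cells had 6.30 ± 1.58 CPM, distal cells 5.33 ± 1.799 CPM and intercalated cells 8 UMIs. Proximal cells exceeded myeloid cells by 1.07 ± 0.21 on the log2 scale (edgeR adjusted p = 3.23e-05). Myeloid and B cells were not told apart with all 5 mice (0.58 ± 0.27, edgeR adjusted p = 0.115), but were without saline mouse 1 (1.02, adjusted p = 0.0109). Early-segment and late-segment proximal cells had overlapping intervals, at 35.3 CPM (33.0 to 37.7) and 36.7 CPM (25.7 to 50.8).

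Outside the tubule, Slc29a3 followed the subtype. Myeloid cells with C1q genes, which mark tissue macrophages, had 6 UMIs in 23 cells, or 106 CPM (38.9 to 230), and cells past no gate with Siglech, a gene of plasmacytoid dendritic cells, had 15 UMIs in 27 cells, or 136 CPM (75.9 to 224). Myeloid cells with Ly6c2 or Ccr2 had 41.5 CPM (25.4 to 64.2), against 5.49 CPM (2.84 to 9.59) in those with Treml4, Ace or Cd300e (3.50 CPM without saline mouse 1, which gave 10 of the 12 UMIs). Adora2a had the other order in the same groups of cells. In the B gate, cells with plasma cell genes had 16.9 CPM (10.5 to 25.9), against 7.71 CPM (5.69 to 10.2) in the others. Proximal tubule RNA was present in every lineage: from the level of 10 proximal genes, it would account for 15.5 of the 69 Slc29a3 UMIs in B cells, 3.88 of 50 in T cells and 3.04 of 55 in myeloid cells. For the cells past no gate it would account for 137, more than the 110 seen.

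Slc28a1, the gene of a concentrative transporter that prefers pyrimidine nucleosides, was all but limited to proximal cells, with 891 of its 898 UMIs in gated cells. It stood at 14.9, 7.52 and 9.82 CPM in FMT mice, against 9.10 and 12.1 CPM in saline mice. T, myeloid and distal cells held 2, 1 and 1 of the rest. The 3 Slc28a1 UMIs in B cells were fewer than the 5.46 that proximal RNA would give there. Early-segment cells had 11.3 CPM (9.99 to 12.7) and late-segment cells 15.3 CPM (8.56 to 25.2). Slc28a3, whose product takes up purine and pyrimidine nucleosides alike, gave 3 UMIs in all gated cells, of which 1 was in T cells and 2 were in proximal cells (upper limit of the exact Poisson interval 0.0929 CPM).

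Slc28a2 encodes the concentrative transporter that prefers purine nucleosides, inosine and adenosine among them, and was a gene of the immune lineages. B cells had 40.6, 40.7 and 33.2 CPM in FMT mice, against 46.1 and 38.4 CPM in saline mice. T cells had 40.6, 40.6 and 41.5 CPM in FMT mice, against 55.9 and 29.0 CPM in saline mice. Myeloid cells had 14.3, 28.7 and 32.5 CPM in FMT mice, against 14.1 and 44.1 CPM in saline mice. B and T cells were not told apart (log2 difference −0.02 ± 0.21, edgeR adjusted p = 0.957). B cells exceeded myeloid cells by 0.67 ± 0.26 (edgeR adjusted p = 0.0341) and T cells exceeded them by 0.69 ± 0.26 (edgeR adjusted p = 0.0277). Both calls ended without saline mouse 1, which held most of the myeloid cells (0.19 and 0.22), without FMT mouse 1 (0.53 and 0.52) and without FMT mouse 2 (0.71 and 0.70). Intercalated and distal cells held 6 and 2 UMIs. In proximal cells the gene was 28 UMIs in 10855 cells, at −6.65 ± 0.29 on the log2 scale relative to B cells (edgeR adjusted p = 1.01e-19). Gm14086, an unprocessed pseudogene that is not in the gene list, overlaps Slc28a2 on the same strand. Any RNA from it could not be told apart from that of Slc28a2 in these counts.

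Among finer groups, cells with neutrophil genes had a Slc28a2 level of 52.9 CPM (33.1 to 80.0) in the myeloid gate and 53.8 CPM (31.4 to 86.2) among cells past no gate. Myeloid cells with Treml4, Ace or Cd300e had 17.4 CPM (12.3 to 23.9), of which saline mouse 1 gave 23 of 38 UMIs and 449 of 617 cells, and without that mouse they had 26.3 CPM (14.7 to 43.3). CD4 T cells without Foxp3 had 49.0 CPM (38.9 to 60.9) and CD8 T cells 37.7 CPM (32.1 to 44.1). The intervals of the CD4 T cells and the neutrophil-gene cells overlap, and the mean over mice was 59.5 ± 33.0 CPM in those CD4 T cells and 53.6 ± 24.6 CPM in the neutrophil-gene myeloid cells (SD, n = 5 mice). B cells with plasma cell genes had 29.1 CPM (20.3 to 40.2), against 43.1 CPM (38.1 to 48.5) in the other B cells. The myeloid gate joined groups with different carriers. Neutrophil-gene cells had Slc28a2 and 0 UMIs of Slc29a1 or Adora2a, and the Treml4, Ace or Cd300e cells had all 3.

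A near neighbour of Slc28a2 on chromosome 2 behaved differently, and was looked at after its values were seen. Gm14085, which RefSeq also names Slc28a2b, lies at 122484941 to 122528040 on the plus strand (GRCm38), next to Slc28a2 at 122426477 to 122461137. Its transcript shares 1498 of its 3691 words of 50 bases with those of Slc28a2 (40.6%), so a read lying wholly within a shared stretch matches both genes. Where the reads fell in the transcripts, and how many were lost this way, was not tested. T cells held 224 Gm14085 UMIs, or 26.9 ± 4.50 CPM (SD, n = 5 mice), against 3 UMIs in the 2338 B cells and 5 in myeloid cells. The 3340 cells past no gate held 145, or 12.3 CPM with the mice pooled. Among them, the 159 cells with natural killer genes held 0. CD8 T cells had 34.5, 42.02 and 51.2 CPM in FMT mice, against 47.6 and 39.7 CPM in saline mice. CD4 T cells without Foxp3 had 9.83, 21.0 and 51.3 CPM in FMT mice, against 0 and 2.36 CPM in saline mice. These CD4 values rest on 4, 9 and 4 UMIs in FMT mice, against 0 and 1 in saline mice, and were not tested.

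The 250 bases before the start of either gene in RefSeq's GRCm38.p6 table are shown because the genes are neighbours with related transcripts and unlike cell ranges. They lie at chr2:122426185-122426434 and chr2:122484691-122484940, on the plus strand. CG pairs would be in capitals, and both windows hold 0, as do 7.87% of the 32851 windows.
Slc28a2: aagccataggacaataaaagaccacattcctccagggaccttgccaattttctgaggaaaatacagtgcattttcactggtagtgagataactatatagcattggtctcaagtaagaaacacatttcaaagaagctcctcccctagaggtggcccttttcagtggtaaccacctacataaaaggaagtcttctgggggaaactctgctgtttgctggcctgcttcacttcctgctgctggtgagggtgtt
Slc28a2b: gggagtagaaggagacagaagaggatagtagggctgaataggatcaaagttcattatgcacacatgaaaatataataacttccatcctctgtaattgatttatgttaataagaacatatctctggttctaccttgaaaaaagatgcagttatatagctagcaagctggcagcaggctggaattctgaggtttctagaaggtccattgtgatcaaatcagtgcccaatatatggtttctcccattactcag

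**Figure D3:**
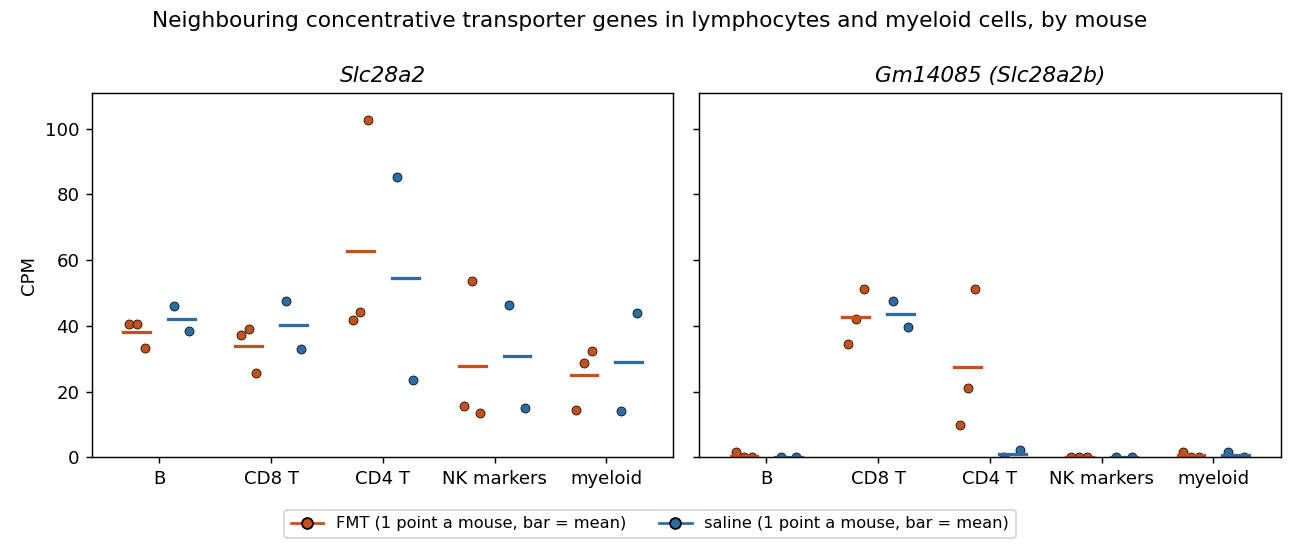
Level (CPM, linear axis) of Slc28a2 and of its neighbour Gm14085 (Slc28a2b) in 5 groups of cells; each point is 1 mouse, FMT left of saline, and bars are group means. Gm14085 has 34.5 to 51.2 CPM in CD8 T cells and lies at or near 0 in B, natural killer and myeloid cells, where Slc28a2 was found in every mouse.

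The comparison of FMT with saline asked whether RNA levels of these receptors and carriers differed within each lineage. Sensing and uptake of nucleosides were not measured. No difference between FMT and saline mice passed the test for any of the 10 genes in any lineage. Of 60 gene and lineage pairs, 19 passed the filter on low counts. At an adjusted p under 0.05 edgeR called 0 of these 19, with 2 at an unadjusted p under 0.05. DESeq2 called 0 as well, but gave no adjusted p for Adora2a, Slc29a1 and Slc29a3 in B cells. Over all genes, 0.0228% were called in B cells, 0.17% in T cells, 0% in myeloid cells, 0.157% in proximal cells, 0.214% in distal cells and 0% in intercalated cells. The 19 log2 fold changes, FMT over saline, had a median of −0.04, and 9 were above 0. In 4 pairs the mice of the groups did not overlap: Adora2a in B cells, Slc29a3 in myeloid cells, Slc29a1 in proximal cells and Adora2b in distal cells. Of all genes, 23.8% in B cells, 21.9% in T cells, 14.7% in myeloid cells, 29.6% in proximal cells, 18.1% in distal cells and 16.4% in intercalated cells did not overlap either. The count of 4 in 19 is near that background.

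**Figure D4:**
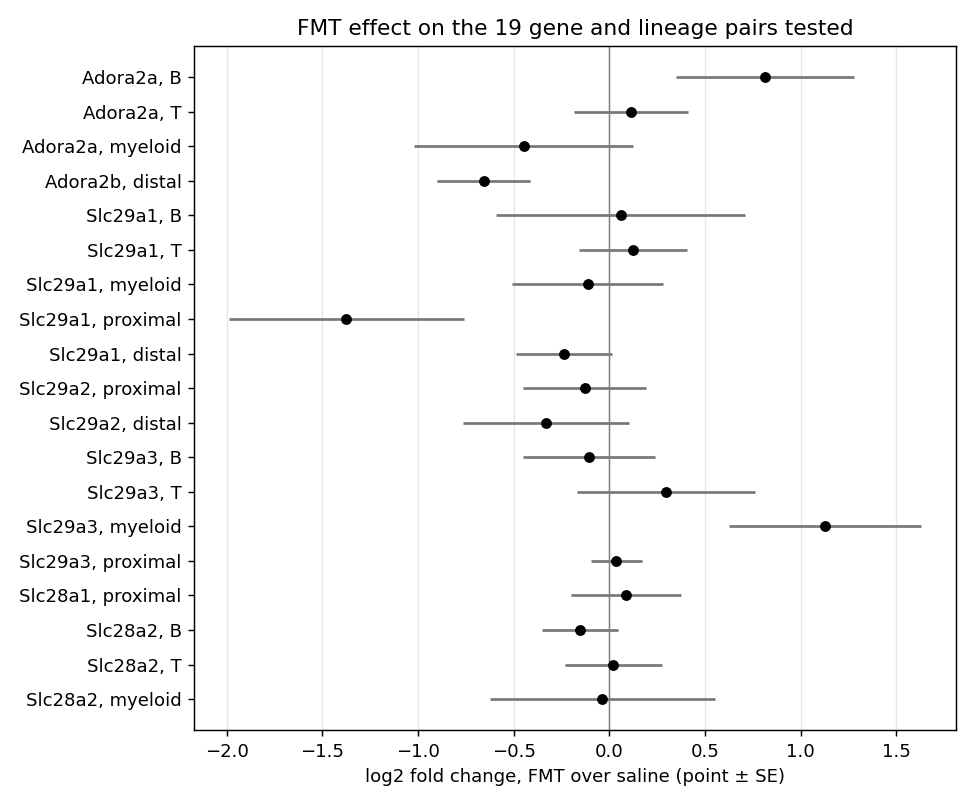
Fold change of FMT over saline (log2 axis) for the 19 gene and lineage pairs that passed the filter on low counts; points are edgeR estimates and lines are ± 1 SE, from 3 FMT and 2 saline mice. The estimates run from −1.37 for Slc29a1 in proximal cells to 1.13 for Slc29a3 in myeloid cells, and none was called after adjustment.

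Adora2b in distal cells had the smallest unadjusted p of the 19. It averaged 35.8 ± 2.79 CPM in FMT mice (SD, n = 3) and 56.0 ± 14.9 CPM in saline mice (SD, n = 2). The log2 fold change was −0.66 ± 0.24 (edgeR adjusted p = 0.766). Without saline mouse 2, which had the highest level and the most distal cells, it was −0.37, and without saline mouse 1 it was −0.83. With every cell thinned to 1000 UMIs, 3.51% ± 0.180 of distal cells held an Adora2b UMI in FMT mice, against 5.20% ± 1.47 in saline mice (exact permutation p = 0.1, the smallest that 3 against 2 mice can give). Unthinned, the shares were 15.8% ± 1.62 in FMT mice, against 24.5% ± 9.08 in saline mice. Fewer receptor transcripts per cell and a different mix of cells inside the gate cannot be told apart in these sums.

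Slc29a3 in myeloid cells stood at 14.3, 22.1 and 20.5 CPM in FMT mice, against 7.86 and 9.79 CPM in saline mice, with a log2 fold change of 1.13 ± 0.50 (edgeR adjusted p = 0.999). Its values rest on 8, 10 and 12 UMIs in FMT mice, against 19 and 6 in saline mice. The make-up of the myeloid gate varied between mice as well. The shares below are of cells that met the marker rule of 1 finer group only, so cells meeting several rules or none are not in them. Cells with Treml4, Ace or Cd300e, which were low in Slc29a3, made up 58.0%, 24.0% and 13.7% of myeloid cells in FMT mice. In saline mice they made up 72.9% and 34.2%, so the groups overlapped. Cells with Ly6c2 or Ccr2, which were high in Slc29a3, made up 10.9%, 18.6% and 12.8% in FMT mice, against 1.30% and 10.0% in saline mice. Cells with C1q genes, also high in it, made up 2.90%, 5.43% and 5.13%, against 0.649% and 1.67%. These shares rest on 4, 7 and 6 C1q cells in FMT mice, against 4 and 2 in saline mice. The part of this in the difference was not tested. Within the Ly6c2 or Ccr2 cells the groups overlapped, at 52.1, 32.5 and 39.7 CPM in FMT mice, against 89.6 and 19.4 CPM in saline mice, from 6, 3 and 5 UMIs, against 4 and 2.

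The other 2 pairs without overlap had few UMIs too. Adora2a in B cells stood at 8.12, 5.81 and 7.96 CPM in FMT mice, against 4.44 and 3.42 CPM in saline mice, from 14, 10 and 6 UMIs, against 8 and 5. Its log2 fold change was 0.81 ± 0.46 (edgeR adjusted p = 0.727). Slc29a1 in proximal cells stood at 0.724, 0.241 and 0.240 CPM in FMT mice, against 1.57 and 0.832 CPM in saline mice, with a log2 fold change of −1.37 ± 0.61 (edgeR adjusted p = 0.457). Without saline mouse 1 the Slc29a1 value was −0.79.

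Slc29a3 in proximal cells, the pair with the most UMIs, had the smallest SE of the 19. It averaged 29.4 ± 3.76 CPM in FMT mice (SD, n = 3) and 29.2 ± 2.05 CPM in saline mice (SD, n = 2), a log2 fold change of 0.04 ± 0.13. Slc28a2 in B cells averaged 38.1 ± 4.31 CPM in FMT mice and 42.2 ± 5.46 CPM in saline mice, a log2 fold change of −0.15 ± 0.20 (edgeR adjusted p = 0.886). Slc28a1 in proximal cells averaged 10.7 ± 3.76 CPM in FMT mice and 10.6 ± 2.1 CPM in saline mice, with a fold change of 0.09 ± 0.29. In T cells the log2 fold changes of Adora2a, Slc29a1 and Slc28a2 were 0.11 ± 0.30, 0.12 ± 0.28 and 0.02 ± 0.25. Leaving out 1 mouse turned the sign of all 3, which then ran from −0.067 to 0.38, from −0.055 to 0.27 and from −0.37 to 0.52. Slc29a1 in distal cells had −0.24 ± 0.25. A p that misses the threshold does not show that the groups were alike.

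Whether the effect of FMT differed between lineages was tested with an interaction term, and 0 of the 6 members in that fit were called, against 0.0998% of 11019 genes. Adora2a had the smallest unadjusted p (edgeR adjusted p = 0.696). Thinned shares of cells with a UMI were compared for 26 gene and lineage pairs, and 2 reached the smallest possible exact permutation p of 0.1, Adora2b in distal cells and Slc28a2 in proximal cells. The share for Slc28a2 was 0.0291% ± 0.00842 in FMT mice and 0.0608% ± 0.0303 in saline mice, from 28 UMIs in all. Unthinned, its shares were 0.215% ± 0.0175 in FMT mice and 0.266% ± 0.156 in saline mice (exact permutation p = 0.7). Adora2b in distal cells had an exact permutation p of 0.2 with cells thinned to 2000 UMIs.

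A list of 42 other genes of the pathway was read beside the 10: enzymes that make or remove adenosine, other purine carriers, G proteins, adenylyl cyclases, cyclic AMP effectors and targets of the signal. Between 14 (intercalated cells) and 31 (T cells) of them passed the filter, and 0 were called in any lineage. The median log2 fold change of the listed genes was 0.06 in B, 0.15 in T, 0.03 in myeloid, 0.04 in proximal, 0.02 in distal and 0.14 in intercalated cells, and the median of all genes lay within 0.01 of 0 in each. Chosen after their values were seen, Adk, which encodes the kinase that turns adenosine into AMP, had log2 fold changes of 0.89 ± 0.26 in B cells (edgeR adjusted p = 0.402) and 0.82 ± 0.24 in T cells (adjusted p = 0.512), with no overlap of the groups in either. The mice of the groups did not overlap for 11 of 27 listed genes tested in B cells and 7 of 31 in T cells, beside 23.8% and 21.9% of all genes. In myeloid, proximal, distal and intercalated cells this held for 2 of 17, 5 of 30, 4 of 22 and 1 of 14 listed genes. The shares of all genes there were 14.7%, 29.6%, 18.1% and 16.4%. Ada, the gene of the deaminase that turns adenosine into inosine, had 1.33 ± 0.47 in B cells (adjusted p = 0.538). Pde3b, which encodes a phosphodiesterase that degrades cyclic AMP, had −1.32 ± 0.30 in B cells (adjusted p = 0.248) and −0.68 ± 0.24 in T cells (adjusted p = 0.689). B and T cells came from the same mice. Proximal tubule RNA in the B gate, by the 10 proximal genes, was 7.30%, 8.50% and 9.87% of the proximal level in FMT mice. In saline mice it was 5.65% and 4.74%, so the groups did not overlap, while in the T gate they did. The part of this RNA in the B cell fold changes was not tested.

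Genes with the most similar pattern were sought for the 4 members with at least 500 UMIs, by Pearson correlation of log2(CPM + 1) over the 30 sums of 6 lineages and 5 mice, which share mice and depth. For Slc28a1 they were Cdhr2 (r = 0.977), Gm26697 (0.972) and Abcc6 (0.970). For Slc28a2 they were Uba7 (0.988), Sash3 (0.980) and Rcsd1 (0.976). For Slc29a3 they were Ankrd33b (0.883), Acox3 (0.872) and Zdhhc9 (0.870), and for Slc29a1 Pea15a (0.921), Mapkapk3 (0.909) and Pfkp (0.896).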

How the data were processed

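Kidney cells of 3 FMT and 2 saline mice were profiled, 1 library a mouse. Per the submitters' processing notes, Cell Ranger 2.1.1 and mm10 were used, whereas the deposited matrix headers name cellranger 4.0.0. The deposited values are raw UMI counts per gene and barcode, made by the authors, and were used as deposited. Gene coordinates came from GENCODE M21, and 9 of the 10 members were found in RefSeq's GRCm38.p6 promoter table. The letter codes in the sample titles are not the same in FMT and saline mice, so a batch they may stand for and the treatment cannot be told apart.

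The members, lists and finer groups were chosen with earlier results of these data known, and the 15 pairwise lineage contrasts were added after seeing the data. All 10 members were described in each lineage. The gates needed 2 UMIs for B, proximal, distal and intercalated cells, 1 for T cells and 3 for myeloid cells. Cells past more than 1 gate were left out, which also removes doublets of different lineages, and no doublet caller was run. Of the T cells, 822 had exactly 1 Cd3e UMI.

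UMIs were summed per mouse and lineage, in mice with at least 20 cells, and gave 230809 to 30402750 UMIs a sum. FMT over saline was fitted within each lineage, and lineages were compared in a joint fit with the mouse as a block, both with edgeR 4.0.16 in R 4.3.3 (quasi-likelihood F test, TMM, filterByExpr, Benjamini-Hochberg adjustment over all genes of a fit). With 2 to 5 mice, a p-value reflects only how these mice vary, and no label says how they were housed. DESeq2 1.42.0 was an alternative. Shares of cells were the expected shares after thinning each cell to 1000 UMIs, with shallower cells left out (in distal cells 20 of FMT and 24 of saline mice), and were compared by exact permutation in Python 3.11.15. Exact Poisson 95% intervals and limits for 0 UMIs (3 counts) cover counting error only. Both fits were first tested on simulated counts with known changes. The simulated spread was the same for all genes, so it does not say how often a change in a member with few UMIs would be found. Levels are CPM (UMIs per 1000000 UMIs of a sum) and are not compared between genes. No label ties same-numbered FMT and saline mice together, so the numbers were not taken as pairs.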

Additional observations from a re-analysis of the deposited data

How the results depend on the processing

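No alternative made edgeR or DESeq2 call a member between FMT and saline. The alternatives were other gates, cell filters, scalings and low-count filters, a replicate block, and leaving out each mouse. The counts of genes called did change. Without the filter on low counts, 157 genes were called in B, 150 in T, 101 in myeloid, 197 in proximal, 100 in distal and 44 in intercalated cells. DESeq2 called 12 in B, 6 in myeloid, 120 in proximal and 5 in distal cells. With library size only, B cells had 1 call. The loose gate gave 0 in T, 3 in proximal and 1 in distal cells, and the strict gate 0 in B, 0 in T, 7 in myeloid and 7 in proximal cells. Giving cells of several gates to the one with most marker UMIs gave 5 in B and 4 in proximal cells. Under 20% mitochondrial UMIs, B cells had 0 calls. Without the cells of most UMIs, T cells had 8 and proximal cells 2. Leaving out each mouse gave 0 to 12 calls in B, 5 to 39 in T, 0 to 14 in myeloid, 5 to 45 in proximal and 7 to 39 in distal cells. The cause of each change was not tested.

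The labels number the mice alike in both groups, and no label ties the numbers to a shared litter, batch or day. Deviations of same-numbered mice had r from −0.18 to −0.040 in B, T and proximal cells, but with 2 saline mice these are the mirror image of the other pairings and decide nothing. With the replicate block, 1 gene was called in B, 26 in T, 85 in myeloid, 33 in distal and 38 in intercalated cells, and no member. The block turned Adora2a in T cells to −0.095, Slc29a1 in T cells to −0.056, Slc29a1 in myeloid cells to 0.076 and Slc29a2 in proximal cells to 0.038.

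Log2 fold changes of FMT over saline near 0 changed sign in other settings too. The strict gate gave 0.087 for Slc29a3 in B cells and −0.076 for Slc28a2 in T cells. Slc29a1 in B cells was −0.042 with DESeq2 and −0.082 under 20% mitochondrial UMIs. Slc28a2 in T cells was −0.042 with library size only and −0.035 without the cells of most UMIs. Slc28a2 in myeloid cells was 0.22 with the loose gate and 0.050 under 20% mitochondrial UMIs. In proximal cells, Slc29a3 was −0.032 with the loose gate and −0.0041 without the cells of most UMIs, which also gave 0.059 for Slc29a2. Leaving out each mouse moved Slc29a1 in B cells between −0.21 and 0.32. In T cells it moved Slc28a2 between −0.37 and 0.52, Adora2a between −0.067 and 0.38, and Slc29a1 between −0.055 and 0.27. In myeloid cells it moved Slc28a2 between −0.91 and 0.87 and Slc29a1 between −0.52 and 0.13. In proximal cells it moved Slc28a1 between −0.28 and 0.32, Slc29a3 between −0.058 and 0.15, and Slc29a2 between −0.29 and 0.076. In distal cells it moved Slc29a1 between −0.44 and 0.046. None of these was called in any setting.

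The members called higher in B cells numbered 1 with the loose gate, 1 with the most-marker rule and 1 under 20% mitochondrial UMIs, because Adora2a was no longer called or a lineage had 0 UMIs of a gene and gave no fold. For proximal cells the number was 2 without the filter and 2 with the most-marker rule. For distal cells it was 1 with the loose gate, the strict gate, under 20% mitochondrial UMIs and without the cells of most UMIs. Leaving out each mouse gave 0 to 2 in B, 1 to 3 in T, 2 to 4 in myeloid and 1 to 2 in distal cells. Slc28a2 in B over T cells was 0.021 without the filter, 0.090 with the loose gate and −0.20 to 0.0079 without each mouse. Unthinned, 4 shares of cells reached the smallest possible p: Adora2a in B cells, Slc29a1 in proximal and distal cells, and Adora2b in distal cells. Adora1, Adora3 and Slc28a3 passed the filter on low counts in no lineage. Leaving out each mouse from the finer groups, an alternative added after seeing the data, is given beside the values it moved by over 1.5 times.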
